A study of Mus musculus with 10 samples.

Results

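Very long contacts join pieces of a chromosome that lie more than 500 kb apart. They were taken here from the list of chromatin contacts that PLAC-seq gave in microglia, the resident macrophages of the brain. PLAC-seq ligates DNA ends that lie close together in the nucleus, pulls down the fragments that carry a chosen chromatin mark and counts the read pairs that join each pair of genomic bins. The mark was H3K4me3, trimethylation of lysine 4 of histone H3, which is laid down at active gene starts. Members were chosen by distance and by the authors' H3K4me3 flags: the starts of the 2 bins of 5 kb lay above 500 kb apart, and exactly 1 of the bins was flagged as marked. This gave 946 contacts out of 23395 with 1 marked bin and 26689 in all. A further 167 contacts above 500 kb had both bins marked, 0 had neither, and none of these is described here.

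The cells were microglia sorted as CD45+ CD11b+ CX3CR1+ from brains of young adult male C57/Bl6 mice labelled wild type for the Sall1 enhancer, from a study of the transcription factor SALL1. PLAC-seq was made from 2 samples, H3K4me3 ChIP-seq from 2 and its input from 2. The contacts of both PLAC-seq samples were combined by the authors in 1 list, so no contact has a value per replicate, no group is compared with another, and no test is given: all values are descriptions. The 4 Hi-C samples of the series, 2 of them from microglia lacking the Sall1 enhancer, were not used. Of 27 autosomal genes of homeostatic microglia, 26 carried an H3K4me3 peak at a start in both ChIP-seq replicates, where 12291 of all 20780 protein-coding genes did. For markers of other cells it was 4 of 11 neuron, 5 of 10 astrocyte, 4 of 9 oligodendrocyte, 3 of 10 endothelial and mural, 2 of 8 border macrophage and 0 of 12 monocyte, neutrophil and lymphocyte genes.

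Background on how such contacts arise helps in reading them. The ring-shaped complex cohesin extrudes loops of chromatin and is held back at DNA bound by CTCF, a zinc finger protein, above all where its binding sequences on the same chromosome point at each other. Enhancers, the distal sequences that raise transcription, can reach a promoter across other genes within such loops, and genes of developmental regulators are known for long, gene-poor stretches around them. The reading of a promoter from H3K4me3 is indirect, since the mark also occurs away from annotated starts.

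The sequences that recurred at the strongest members were matches to the core CTCF consensus, and they are shown because the far ends of these contacts lack H3K4me3 and have no other feature in the files. Each window of 60 bases comes from the RefSeq GRCm38.p6 genome, reads 5′ to 3′ along the strand of the match and has the 12 matching bases in capitals. The match beyond Kif26b lies in an intron of Smyd3 at chr1:179142361-179142420 on the minus strand, in the unmarked bin of the contact with the highest ratio. The marked bin near Enc1 has a match on the plus strand at chr13:97235198-97235257. Its partner bin in Arhgef28, 700 kb to the right, has 2 on the minus strand, at chr13:97938114-97938173 and chr13:97939049-97939108. The marked bin near Myrfl has its centre 49.4 kb from the start of that gene, the nearest coding start. It has a match on the minus strand at chr10:116848912-116848971. Its partner in Ptprb, 515 kb to the left, has one on the plus strand at chr10:116330604-116330663. The intergenic partner of Tsc22d1 is at chr14:77008418-77008477 on the minus strand, that of Sall1 at chr8:89571981-89572040 on the minus strand, and that of Maf, in an intron of Wwox, at chr8:115095709-115095768 on the plus strand.
Kif26b partner: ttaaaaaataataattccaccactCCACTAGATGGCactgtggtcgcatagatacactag
Enc1 marked bin: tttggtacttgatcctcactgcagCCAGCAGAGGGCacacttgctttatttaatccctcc
Enc1 partner, first: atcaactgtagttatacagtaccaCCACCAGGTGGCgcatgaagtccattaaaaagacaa
Enc1 partner, second: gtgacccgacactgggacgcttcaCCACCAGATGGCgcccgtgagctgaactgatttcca
Myrfl marked bin: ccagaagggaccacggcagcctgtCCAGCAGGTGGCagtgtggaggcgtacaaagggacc
Myrfl partner: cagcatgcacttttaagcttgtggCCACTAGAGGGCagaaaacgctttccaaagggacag
Tsc22d1 partner: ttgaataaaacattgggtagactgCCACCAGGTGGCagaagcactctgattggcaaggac
Sall1 partner: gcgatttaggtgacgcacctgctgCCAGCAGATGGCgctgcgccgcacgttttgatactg
Maf partner: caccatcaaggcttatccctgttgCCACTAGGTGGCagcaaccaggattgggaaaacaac
Near Enc1 and near Myrfl the matches of the 2 bins point at each other. The partners of Kif26b, Tsc22d1, Sall1 and Maf each hold a match that points at the marked bin, on the strand set by the side on which they lie. The windows were chosen after their direction was seen, and not every match lay so: the partner bins of Kif26b at 610 and 620 kb, next to the one printed, hold a match on the plus strand that points away from the marked bin. The match in the marked bin near Zfp36l1 points away from its partners as well.

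The 946 contacts used 388 marked bins and 773 unmarked bins, and the authors' clustering of neighbouring bin pairs placed them in 318 clusters, so many share reads and source. By type, 710 contacts belonged to sharp clusters, 191 to broad clusters and 45 stood alone. Distances ran to 1000 kb, the end of the list, with a median of 610 kb. The contacts thinned with distance: 451 lay at 505 to 600 kb, 202 up to 700 kb, 149 up to 800 kb, 93 up to 900 kb and 51 beyond. Just inside the threshold, 31 contacts at 505 kb had a median of 11 read pairs and 6.44 times the expected count. Just outside it, 26 contacts at 500 kb had a median of 10 read pairs and 5.50 times the expected count.

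Few read pairs supported each very long contact, but few were expected. The expected count comes from the authors' regression on distance and on properties of the bins. Very long contacts had a median of 10 read pairs (range 7 to 38) and an expected count of 1.56, against 17 read pairs and 3.92 in the 22449 contacts of up to 500 kb with 1 marked bin. The ratio of read pairs to expected count had a median of 6.12 (95% interval of the median over contacts 6.03 to 6.20) in very long contacts and 4.04 in the shorter ones. It had a median of 2.45 up to 40 kb, 3.96 from 40 to 200 kb, 5.32 from 200 to 500 kb and 6.12 above 500 kb. With as few as 7 read pairs required, a low expected count needs a high ratio to be listed, so the order of these medians partly restates the list's cutoffs: the lowest ratio was 3.93 in very long contacts and 2.00 in shorter ones. A count of at least 20 read pairs was reached by 34 very long contacts (3.59%), against 38.9% of the shorter ones. A false discovery rate of at most 0.0001 was reached by 36.0% of very long and 39.3% of shorter contacts.

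**Figure D1:**
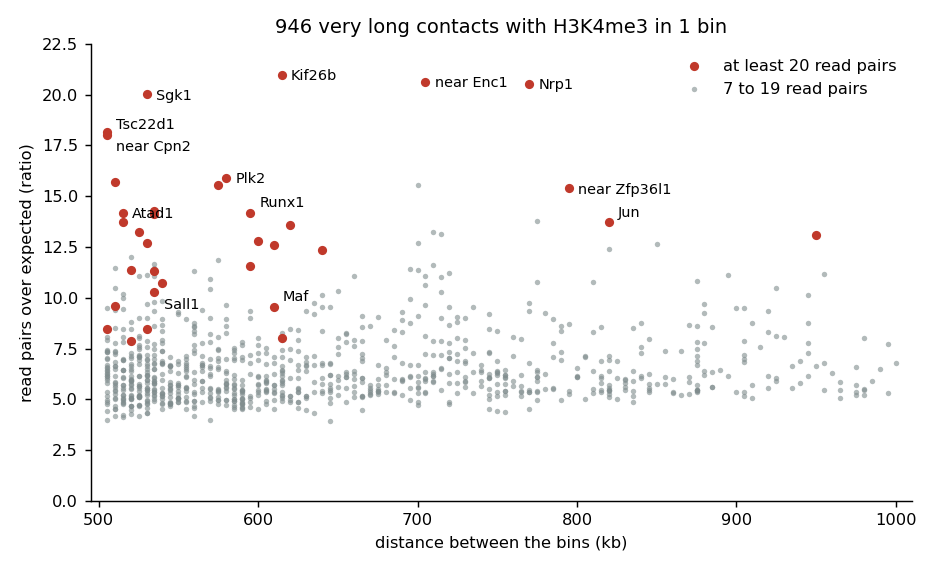
Each point is 1 of the 946 very long contacts, at the distance between its bins in kb (horizontal) and its read pairs over the expected count (vertical, linear axis from 0); red points have at least 20 read pairs and gray points 7 to 19. The ratio of the labelled contacts reaches 20.99 at Kif26b, while the median of all is 6.12 and the lowest value lies at 3.93.

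The strongest members belonged to genes of varied roles. The first by ratio joined the start of Kif26b, a member of the kinesin family, to an intron of Smyd3, a lysine methyltransferase, 615 kb away. It had 32 read pairs against 1.52 expected, a ratio of 20.99 (exact Poisson 95% interval 14.4 to 29.6, counting error only). A bin 6.11 kb from the nearest marked start, that of Enc1, an actin-binding kelch protein, had 28 read pairs with a bin over an exon of Arhgef28, a guanine nucleotide exchange factor, at 705 kb (ratio 20.6, interval 13.7 to 29.8). The start of Nrp1, a receptor for semaphorins and VEGF, had 34 read pairs with an intron of the polarity gene Pard3 at 770 kb (ratio 20.5, interval 14.2 to 28.7). These 3 ratios do not differ beyond their counting intervals, which overlap almost wholly.

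The next contacts were at or near Sgk1, Tsc22d1, Cpn2 and Plk2. Sgk1, a serum- and glucocorticoid-regulated kinase, had the highest count of all members: a bin that ends 0.335 kb from its start had 38 read pairs with an intergenic bin 530 kb away (ratio 20.02). Tsc22d1, a TGF-beta-stimulated gene, had 27 read pairs with an intergenic bin at 505 kb (ratio 18.2). A bin that ends 0.046 kb from the start of Plk2, a polo-like kinase, had 24 read pairs at 580 kb (ratio 15.9), and the bin that holds this start had at most 19 (ratio 11.8). A marked bin whose nearest coding start is that of Cpn2, a subunit of carboxypeptidase N, had 34 read pairs at 505 kb (ratio 18.0). All 4 of these far bins were intergenic. Their counting intervals overlap as well, from that of Sgk1 (14.2 to 27.5) to that of Plk2 (10.2 to 23.7).

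The remaining contacts among the first 10, 1 per cluster, were those near Zfp36l1 and at Atad1 and Runx1. A bin 37.0 kb from the marked start of Zfp36l1, which encodes an RNA-binding protein of mRNA decay, had 21 read pairs with an intron of Rad51b, a gene of recombinational DNA repair, at 795 kb (ratio 15.4). Atad1, an ATPase of the mitochondrial outer membrane, had 24 read pairs with an intron of Rnls, the gene of renalase, at 515 kb (ratio 14.2). Runx1, a transcription factor of blood and myeloid development, had 27 read pairs with an intergenic bin at 595 kb (ratio 14.2). At Runx1 and Atad1 the bin held the gene's start, while the bin near Zfp36l1 held no coding start and had the weakest H3K4me3 of the 10.

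The Sgk1 locus was among those seen from both ends. A weakly marked bin, with its centre 95.2 kb from the start of Aldh8a1, had a peak of 0 in ChIP-seq replicate 1 and 8.95 tags per 10 M in replicate 2. It had 21 read pairs with an unmarked bin 10.3 kb from the start of Sgk1, at 535 kb (ratio 14.1). The bin beside the Sgk1 start contacted the same stretch, as given above. At this locus the flag therefore fell on either end, depending on the bin.

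The flagged bin was not always the end at a gene start. Within 10 kb of a start with H3K4me3 in both replicates lay the marked bin alone in 505 contacts (53.4%), both bins in 93 (9.83%), the unmarked bin alone in 44 (4.65%) and neither in 304 (32.1%). Among shorter contacts the shares were 48.7%, 23.8%, 7.74% and 19.8%. In the 44 contacts with the start on the unmarked side, 31 genes were the nearest, with ratios of 4.70 to 12.7. The strongest of these was Sox4, an HMG-box transcription factor. A marked bin had 27 read pairs with a bin over the exon of Sox4 at 530 kb (ratio 12.7). The nearest coding start to that marked bin was that of Gm11361, 160 kb from its centre. Sox4 also had 3 very long contacts from the marked bin of its own start, at 525 to 545 kb, with at most 11 read pairs (ratio 5.17).

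Of the 388 marked bins, 187 (48.2%) held the start of a protein-coding gene and another 83 (21.4%) had one within 10 kb, while 51.5% and 25.2% did so among the 7523 marked bins of shorter contacts. In all, 198 protein-coding genes had a start in a marked bin. Of the 201 bins without a coding start, 37 (18.4%) held the start of another annotated gene. Most marked bins had their mark in the deposited peaks as well: 326 of 388 (84.0%) had a peak in both ChIP-seq replicates, and 26 (6.70%) in neither. In shorter contacts 80.7% of marked bins had a peak in both replicates and 11.01% in neither. Among the 326, the median of the tallest peak was 146.4 tags per 10 M in replicate 1 and 151.4 in replicate 2. The same medians for shorter contacts were 141.0 and 143.2, inside the 95% intervals of the medians for very long contacts (120.8 to 170.6 and 117.1 to 179.8). A peak in both replicates was found in 2 of the 773 unmarked bins.

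**Figure D2:**
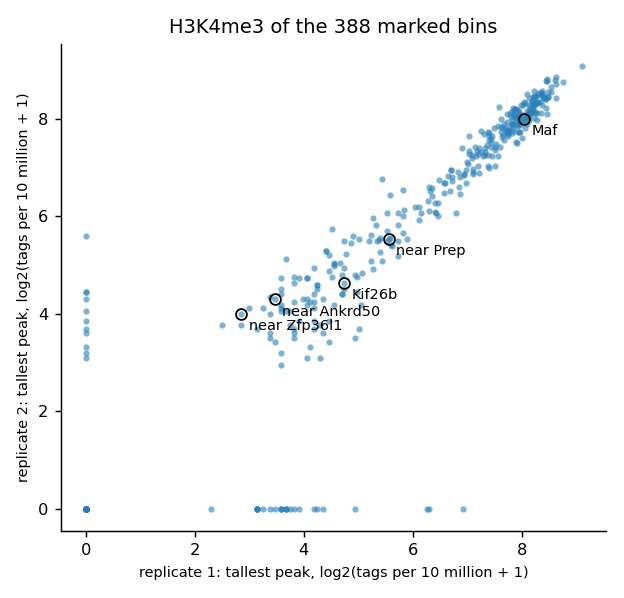
Each point is 1 of the 388 marked bins, with the tallest H3K4me3 peak of replicate 1 (horizontal) and replicate 2 (vertical), both as log2 of tags per 10 M plus 1; points on an axis had no peak in that replicate, and circles mark named bins. The 326 bins with a peak in both replicates lie along the diagonal, with the bins near Prep, Ankrd50 and Zfp36l1 and at Kif26b in its lower part and Maf in its upper part.

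The contacts fanned out from a few bins. A single contact was held by 173 marked bins (44.6%), whereas the highest number was 14, and 10 bins had 9 or more. All contacts of a marked bin lay on the same side of it: of the 215 marked bins with at least 2 very long contacts, 0 had them on both sides. If these bins were independent, 3 counts of the total would allow a share of up to 1.40%. Among shorter contacts, 903 of the 4785 marked bins with at least 2 contacts had them on both sides (18.9%). Neighbouring bins share reads, so contacts of a fan are not independent, and neither are the fans of adjoining marked bins. The limit of 1.40% may therefore be too low.

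Both bins with 14 contacts lay far from a coding start and had modest H3K4me3. The first, whose nearest coding start is that of Prep, the gene of prolyl endopeptidase, lay 62.2 kb from it and had peaks of 46.0 and 45.5 tags per 10 M in replicates 1 and 2. Its contacts of 530 to 740 kb had 7 to 17 read pairs each. They reached the autophagy gene Atg5 in 9 of 14 contacts and introns of Prdm1, the gene of the repressor BLIMP-1, in 2. The second lay 251 kb from Ankrd50 and had peaks of 10.1 and 18.6. It reached Spata5 in 10 of 14 contacts, with 8 to 15 read pairs each at 570 to 740 kb, and its unmarked bins lay near the starts of Spata5 and of Spry1, an inhibitor of receptor tyrosine kinase signaling. Neither bin had any contact of up to 500 kb in which it alone was marked.

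The other fans left bins at or near 7 genes. Bcl6, a transcriptional repressor, had 12 contacts of 575 to 975 kb from the bin of its start, and all 12 ended in Lpp, a LIM domain gene. H3K4me3 of that bin was 195.5 and 226 tags per 10 M. The bin of Kif26b, with H3K4me3 of only 25.7 and 23.9, had 12 contacts, all in introns of Smyd3, in stretches at 590 to 630 kb and beyond 900 kb. A second strong contact of Kif26b, with 20 read pairs at 950 kb (ratio 13.1), was the farthest with that many read pairs. Atad1 had 11 contacts, all in introns of Rnls. Nrp1 had 11 from the bin of its start and 9 from the next bin, which reached the same stretches of Pard3 and of the intergenic DNA between Pard3 and Nrp1. The bin beside the Sgk1 start had 10, near Zfp36l1 there were 9, all in Rad51b, and Runx1 had 9, all intergenic. Taking the read pairs of each fan together, the sum exceeded the expected sum from 5.67 times at Runx1 to 9.49 times at Kif26b.

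**Figure D3:**
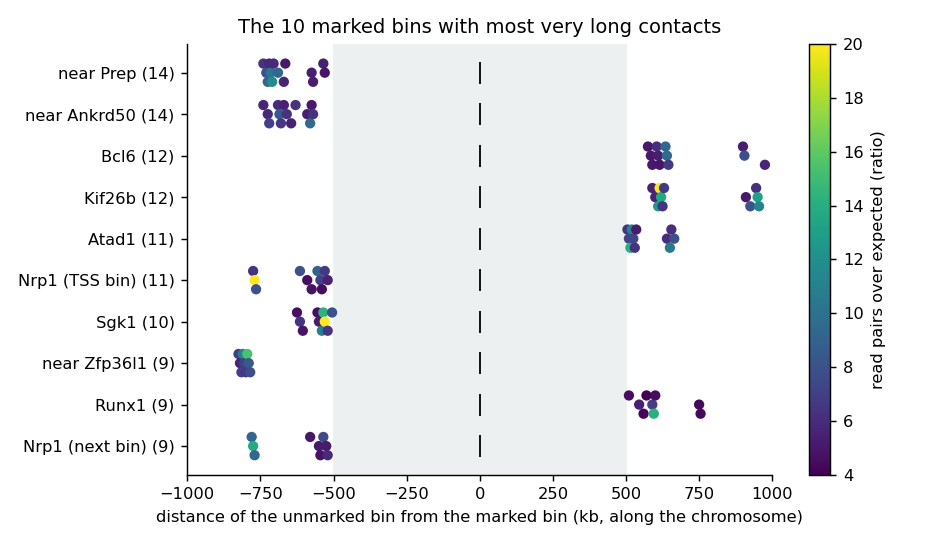
Rows are the 10 marked bins with most very long contacts (number in brackets), and each dot is an unmarked bin at its distance in kb along the chromosome from the marked bin at 0, coloured by read pairs over expected; vertical offsets within a row only separate dots, and the gray band of 500 kb on each side holds no members by the rule. Every fan lies on 1 side, as at Kif26b, where 12 contacts lie to the right, and at the bin near Prep, where 14 lie to the left.

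The far ends of these contacts lay between genes about as often as any bin of the genome, and more often than those of shorter contacts. Of the 773 unmarked bins, 436 (56.4%, Wilson 95% interval 52.9 to 59.9) were intergenic, 199 (25.7%) intronic, 130 (16.8%) overlapped an exon, and 8 (1.03%) held a coding start. Among the 15961 unmarked bins of shorter contacts, 37.5% were intergenic, 26.5% intronic, 32.8% exonic and 3.28% held a start. Of all autosomal 5 kb bins 55.5% were intergenic, inside the interval of the very long contacts, 22.9% intronic and 4.96% held a start. The intergenic share was 35.7% up to 40 kb, 35.1% from 40 to 200 kb, 44.1% from 200 to 500 kb and 56.4% above. These intervals cover counting error only and treat bins as independent, which neighbouring bins are not.

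Where the far end was inside a gene, the typical bin lay in a long gene, with a few hosts holding many of the bins. The 329 exonic or intronic bins lay in 140 genes, and the median length of the gene over these bins was 195.2 kb (95% interval 159.2 to 254.5), against 79.2 kb (76.2 to 82.9) for shorter contacts. Over all genic 5 kb bins of the autosomes the median was 127.8 kb. These medians count bins, so a gene reached by a fan of contacts weighs more, and the intervals treat bins as independent. A median with each gene counted once was not taken, so the values do not show that most of the 140 genes were long. Rad51b held 15 of the unmarked bins, Lpp 14, Smyd3 12, Rnls 11 and Wwox, a WW domain oxidoreductase, 11. Most of these genes were themselves marked: 295 of the 329 bins (89.7%) lay in a gene with H3K4me3 at a start in both replicates, and the share was 89.7% in shorter contacts as well. The contacted gene and the host can be the same only where the gene is longer than the distance, so the rule itself keeps such bins few: there were 6 of 329 (1.82%), against 22.6% in shorter contacts, and nothing is read from the difference. Fat3, an atypical cadherin of 591.1 kb, was such a case, with 5 contacts of 560 to 585 kb from its start, the strongest to an intron of its own body.

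Few genes lay between the bins. A very long contact passed over a median of 1 protein-coding start, but up to 40. Per Mb of intervening DNA this came to 3.80 genes, and 2.70 with H3K4me3, against 11.5 and 8.78 for shorter contacts. The density was 20.6 genes per Mb up to 40 kb, 15.6 from 40 to 200 kb, 7.98 from 200 to 500 kb and 3.80 above 500 kb, where the autosomes as a whole have 8.44. No gene lay between the bins in 150 contacts (15.9%), among them those from the starts of Maf, Nrp1 and Sall1. For marked bins with a gene start, the marked gene nearest to the unmarked bin was the contacted one in 40 of 431 contacts (9.28%), against 28.4% for shorter contacts. By class, with more DNA in between at each step, the share was 63.5% up to 40 kb, 23.1% from 40 to 200 kb, 15.6% from 200 to 500 kb and 9.28% above. The far bin lay upstream of the start in 216 of 405 contacts with a single reading direction (53.3%, interval 48.5 to 58.1), against 47.5% in shorter contacts.

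**Figure D4:**
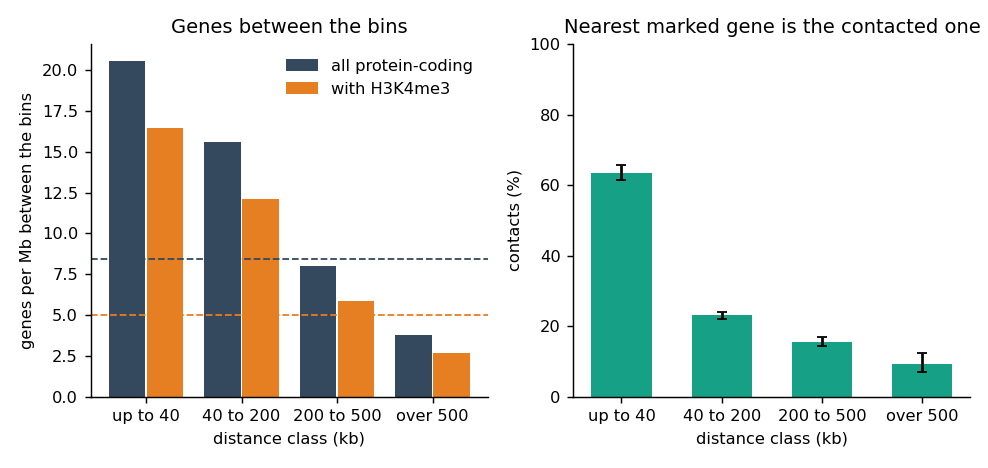
Left, protein-coding genes per Mb between the bins, all (dark) and with H3K4me3 in both replicates (orange), for 4 distance classes in kb, with dashed lines at the level of all autosomes; right, the share of contacts of marked gene starts in which the nearest marked gene to the unmarked bin is the contacted one, with Wilson 95% intervals. Gene density falls to 3.80 per Mb over 500 kb and the share to 9.28%.

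Chromosomes differed widely in how many of their contacts were very long. The share of contacts with 1 marked bin was 11.2% on chromosome 13 (116 contacts), 7.50% on chromosome 12 and 7.12% on chromosome 10. It was 0.863% on chromosome 7 (13 contacts) and 1.32% on chromosome 11. Chromosomes 7 and 11 have 13.9 and 13.4 protein-coding genes per Mb, while chromosomes 13, 12 and 10 have 6.94, 5.35 and 7.80. Across the 19 autosomes, which share the same libraries, Pearson's r between the share and the gene density was -0.65 and Spearman's rank correlation -0.67, given as a description.

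The CTCF consensus was more frequent in these bins than in the genome at large. A match to the core consensus, named here as the CTCF core motif of 12 letters and searched on both strands, lay in 73 of 773 unmarked bins (9.44%, interval 7.58 to 11.7) and 40 of 388 marked bins (10.3%, interval 7.66 to 13.7). For shorter contacts the shares were 7.37% and 7.83%, and among all autosomal 5 kb bins 2.48% held a match. Among the contacts with at least 20 read pairs, 11 of 32 unmarked bins had a match (34.4%, interval 20.4 to 51.7). The share was 13.6% (10.6 to 17.3) among 403 unmarked bins of contacts from 200 to 500 kb with at least 20 read pairs, and 7.53% over all shorter contacts with that many. Of the 11 bins, several come from the Kif26b fan, and with 1 contact per cluster it was 8 of 20 (40.0%, interval 21.9 to 61.3). The shares given for shorter contacts were not reduced to 1 contact per cluster. Over all very long contacts this choice moved the share from 9.44% to 14.5%. The match is a stretch of letters, and whether CTCF bound there was not measured.

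These matches had a direction. Where the matches of an unmarked bin lay on 1 strand, they pointed at the marked bin in 60 of 73 bins (82.2%, interval 71.9 to 89.3) of very long contacts, and in 911 of 1158 (78.7%) of shorter ones. In marked bins they pointed at the unmarked bin in 28 of 38 (73.7%, interval 57.99 to 85.03), against 73.5% in shorter contacts. Both intervals of the very long contacts include the share of the shorter ones. Both bins held a match in only 16 very long contacts, and in 11 of them (68.8%) a pair of matches pointed at each other. The strongest of the 11 were near Enc1 (19 read pairs at 700 kb, ratio 15.6), near Myrfl (25 read pairs at 515 kb, ratio 13.7) and at Thnsl2 (17 read pairs at 660 kb, ratio 11.1). The windows printed above for Enc1 and Myrfl are these pairs.

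**Figure D5:**
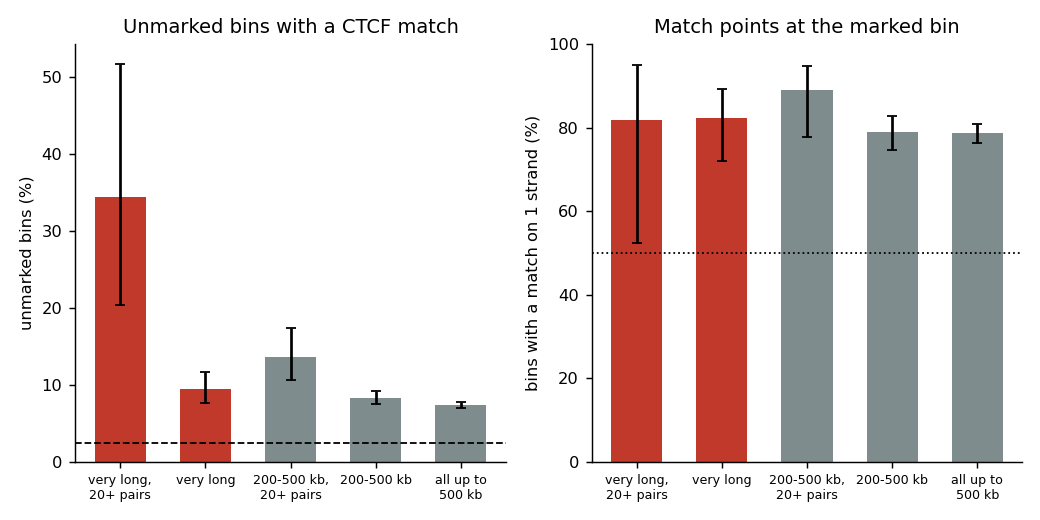
Left, the share of unmarked bins with a match to the CTCF core consensus, with a dashed line at the 2.48% of all autosomal bins; right, among unmarked bins with matches on 1 strand, the share whose match points at the marked bin, with a dotted line at equal shares; bars in red are very long contacts, gray ones shorter contacts, and error bars are Wilson 95% intervals. Very long contacts with at least 20 read pairs reach 34.4% on the left, while the bars on the right lie between 78.7% and 88.9%.

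A motif of PU.1, the ETS factor that specifies macrophages, was searched as well. Its letters GAGGAAGT on either strand lay in 27.9% of unmarked bins (interval 24.9 to 31.2), and that interval includes the 29.6% of shorter contacts and the 26.9% of all autosomal bins. In marked bins the share was 32.2%, against 31.8%. So short a string lies in many bins of the genome, so these shares cannot show whether bound PU.1 sites were more frequent here. Binding of PU.1 was not measured. The GC content of the unmarked bins had a median of 42.7%, against 45.4% for shorter contacts and 41.4% for all bins.

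The contacted genes were also counted by role. Of 35 myeloid transcription factor genes with any contact from 1 marked bin, 6 had a very long one (17.1%), against 198 of all 4152 protein-coding genes with a contact (4.77%); the list was chosen with earlier results of these data known. Jun, a subunit of AP-1, had 8 very long contacts at 575 to 870 kb. In the strongest, 20 read pairs led to an intron of the kinase-like gene Fggy at 820 kb (ratio 13.7, interval 8.39 to 21.2). Maf, a bZIP factor, had 8 at 520 to 935 kb, besides 26 shorter contacts. In the strongest, 26 read pairs led to an intron of Wwox at 610 kb (ratio 9.56, interval 6.25 to 14.01). Runx1 had 9 and Bcl6 had 12, as given above. In these 4 genes H3K4me3 at the start was high in both replicates, from 173.7 and 170.8 tags per 10 M at Runx1 to 270.3 and 265.5 at Jun.

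Genes of microglia were counted in the same way. Of the 17 homeostatic genes with a contact, 2 had a very long one (11.8%), among them Sall1. Of the 14 contacted genes of the lysosome list, 1 had a very long contact. Of 116 genes of the study's microglia signature with a contact, 7 had a very long one (6.03%), near the 4.77% of all genes. Beside Sall1, Sox4 and Fat3, these included Ebf3, Mrc2 and Nuak1. Ebf3, a helix-loop-helix factor, had 13 read pairs at 815 kb (ratio 8.58). Mrc2, an endocytic collagen receptor, had 4 contacts, the strongest with 11 read pairs to an exon of Tanc2 at 565 kb (ratio 6.68). Nuak1, an AMPK-related kinase, had 4 with up to 17 read pairs at 615 to 630 kb (ratio of the strongest 8.27).

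Among genes of guidance, adhesion and cytoskeletal regulation, 2 of 19 had a very long contact (10.5%, where 4.77% of all contacted genes did), and both were neuropilins. Nrp2 had 2, with 11 read pairs at 770 kb to an intron of Pard3b in the stronger (ratio 6.80, interval 3.39 to 12.2). The strongest contact of each neuropilin thus led to an intron of 1 of 2 paralogous polarity genes, Pard3 for Nrp1 and Pard3b for Nrp2. Each lay at 770 kb and upstream of the start. Of the 11 contacts of the bin of the Nrp1 start, however, 8 were intergenic and 2 lay in introns of Pard3. This likeness was noticed after the values were seen. The marker of oligodendrocyte precursors Pdgfra had 2 contacts at 515 and 520 kb, the stronger with 8 read pairs (ratio 5.57), and low H3K4me3 of 24.9 and 20.1 tags per 10 M. No very long contact was listed for the 19 contacted genes of TGF-beta and SMAD signaling, 17 homologs of Alzheimer's disease risk genes, 15 ribosomal protein genes, 13 of cell cycle and survival, 11 of the inflammatory response or 4 developmental regulators of other lineages. With 4.77% of all contacted genes having one, a count of 0 among 4 to 19 genes does not set these lists apart. Developmental regulators outside that gene list, among them Hoxa13, En1, Foxc1 and Osr2, did have very long contacts from the bin of their start. With starts within 5 kb of the marked bin counted as well, TGF-beta and SMAD signaling had 1 such gene, cell cycle and survival 1 and the developmental regulators 2, while the other lists without one still had 0. Absence from the list does not show a lack of contact, since the depth of PLAC-seq is unknown.

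Sall1 itself, the gene of the study, lay in a dense group of 21 very long contacts, 17 from bins the authors annotated to it and 4 from other marked bins in the locus. Read pairs ran from 8 to 26 with a median of 10, and ratios from 3.96 to 11.5 with a median of 6.11. The bin of its start, with H3K4me3 of 258.7 and 270.8 tags per 10 M, had 26 read pairs with an intergenic bin at 535 kb (ratio 10.3, interval 6.70 to 15.0) and 13 with the bin to the left of it (ratio 6.66). The bin next to that of the start had 18 read pairs with this second bin, which holds the CTCF match printed above (ratio 11.5). Stretches of 740 to 750 kb formed a separate group of 4 contacts with 8 to 14 read pairs. From the other side, a bin 521 kb from the Sall1 start with weak H3K4me3 of 17.1 and 13.4 contacted unmarked bins at the end of the gene and beyond it with 8 to 11 read pairs. No other protein-coding start lay between the bin of the Sall1 start and its partners.

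The contacts of the farthest clusters had few read pairs. A bin near Psmc1, a proteasome subunit gene, had 12 at 995 kb (ratio 7.70). A bin 135.9 kb from the start of the kinase gene Map2k6, the nearest coding start, had 8 at 990 kb (ratio 6.49). A bin whose centre lay 137 kb from the nearest coding start, that of the exchanger gene Slc24a2, had 11 at 980 kb. They led to an exon of Focad (ratio 8.04). The clusters near Id2, an inhibitor of helix-loop-helix factors, at Bcl6 and another of the bin near Psmc1 tied next, each with 8 read pairs at 975 kb. At 8 to 12 read pairs these counts sit near the lower end of the list.

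Some unmarked bins met several marked ones. Of 773 unmarked bins, 133 (17.2%) contacted 2 or more marked bins at very long distance, against 28.5% among shorter contacts. In 51 bins (6.60%) the marked bins lay over 25 kb apart. A bin in an intron of Dusp4, a MAP kinase phosphatase gene, contacted 5 marked bins of Dctn6, Leprotl1 and Saraf at 605 to 705 kb, with 57 read pairs in all (6.76 times expected). Among bins with 4 marked partners, those with most read pairs were a Sall1 partner (63 read pairs), an intergenic bin contacted from Dleu2, Spryd7 and Trim13 (60) and an intron of Rad51b contacted from Zfp36l1 (55). The marked partners of each of these bins lay next to each other or at adjoining genes.

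Most of the unmarked bins belonged to very long contacts alone, but many marked bins did not. Contacts of up to 500 kb were also held by 199 of 388 marked bins (51.3%) and by 101 of 773 unmarked bins (13.1%). Maf, with 26 shorter contacts, and Runx1, with 14, had both kinds. The bins of the starts of Kif26b, Plk2 and Sox4 had no shorter contact in which they alone were marked. The marked bin next to that of the Sox4 start had 1. Shorter contacts with both bins marked were not counted here.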

How the data were processed

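PLAC-seq (2 samples combined by the authors), H3K4me3 ChIP-seq (2 samples) and its input (2 samples) of wild-type microglia were grouped by their labels, which do not state whether replicates were separate animals. The study's methods name MAPS at a bin size of 5 kb for PLAC-seq, with H3K4me3 peaks of the ENCODE ChIP-seq pipeline as template and mm10 as the build. The processing notes also name Bowtie2 and HOMER. Per pair of bins, the authors deposited the count of read pairs and, as a signal, the number their regression expected. The authors' false discovery rate (an adjusted p-value, at most 0.01) and a deposited −log10 p-value summed per cluster, not used, were also given. The list holds counts of at least 7 and ratios of at least 2, ends at 1000 kb and covers the 19 autosomes. Total read pairs and counts per library were not used here, so PLAC-seq depth is unknown.

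H3K4me3 came as 1 deposited list of peaks per library, 27845 and 26574 peaks, from 12.8 and 13.4 M tags. The authors' signal of a peak is its tags per 10 M tags. Their raw tag count gave the depth. The deposited fold over input (a ratio), p-value against input, focus ratio (a fraction) and peak score were not used. These lists may not be the template of MAPS.

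Genes and their starts (TSSs) came from GENCODE vM21 basic, with 20780 autosomal protein-coding genes, of which 12291 had a peak within 1 kb of a start in both replicates. CTCF and PU.1 letters were searched in the RefSeq GRCm38.p6 genome. A bin carried the H3K4me3 of the tallest peak it overlapped. Intervals are Wilson (shares), exact Poisson (read pairs) or binomial order intervals (medians), at 95%, and cover counting error only. The members and lists were chosen with earlier results of these data known. Genes named were the 10 contacts with the highest ratio among those with at least 20 read pairs, 1 per cluster, the 10 marked bins with most contacts, the 5 farthest clusters, the 5 unmarked bins with most marked partners, listed genes with a contact, and Sall1. Others named, such as Enc1, Myrfl, Thnsl2, host genes and Sox4 seen from its partner, were chosen after their values were seen. Some genes that this rule names are not reported here. Helper functions were tested on simulated data. Python 3.11.15, numpy 2.4.6, pandas 2.3.3, SciPy 1.17.1 and matplotlib 3.10.9 were used.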

Additional observations from a re-analysis of the deposited data

How the results depend on the processing

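No paired analysis was possible because every result is a description of 1 combined list and comes from no test. The 13 summary values were recomputed in 75 ways in all; 32 stayed within the spread allowed and 43 moved, none of which has a direction to lose. With at least 20 read pairs there were 34 contacts, 21 marked and 32 unmarked bins, a median of 24 read pairs, a ratio of 13.4, H3K4me3 of 155.5 tags per 10 M, CTCF matches in 34.4% of unmarked bins, convergent matches in 2.94% of contacts, a start in 55.9% of marked ends, the nearest marked gene contacted in 31.6% and shorter contacts in 81.0% of marked bins. With a false discovery rate of at most 0.0001 the values were 341 contacts, 199 marked and 288 unmarked bins, 13 read pairs, a ratio of 8.03, H3K4me3 of 143.3, CTCF matches in 14.6% and shorter contacts in 56.3%. With 1 contact per cluster they were 318 contacts, 303 unmarked bins, 11 read pairs, a ratio of 6.94, H3K4me3 of 154.7, CTCF matches in 14.5% and a start in 54.7%. Above 750 kb they were 203 contacts, 101 marked and 169 unmarked bins, H3K4me3 of 179.9, 52.7% intergenic, the nearest marked gene contacted in 2.25%, convergent matches in 0.493% and shorter contacts in 41.6%. With at least 20 read pairs and 1 contact per cluster, a choice made after seeing the data, CTCF matches were in 40.0%. The 14-letter consensus gave 6.60% of unmarked bins and 0.634% convergent contacts, where 1.29% of all bins match. A start was at 52.3% of marked ends by deposited peaks, 61.6% within 5 kb and 55.9% with all annotated genes. H3K4me3 was 146.9 by peak midpoint and 129.3 to 145.5 with 1 replicate left out. The cause of these moves was not tested beyond the smaller sets themselves. The list's limits are its unknown depth, its lack of replicates and neighbouring bins that share reads.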

Other observations

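Beyond the genes described, 8 unmarked bins held a protein-coding start without H3K4me3 in either replicate. They included starts of Trappc9, contacted from Kcnk9 at 510 kb with 12 read pairs (ratio 6.63), of Tsc22d1, contacted from a bin near Lacc1 at 555 kb with 9 read pairs (ratio 6.50), and of Kcne2, contacted from a bin near Itsn1 at 565 kb with 9 read pairs (ratio 5.36). Trappc9 and Tsc22d1 also have a start with H3K4me3 in both replicates: 286.7 and 280.5 at Trappc9, 259.4 and 241.7 at Tsc22d1. That of Trappc9 lies in the bin next to the contacted one. The lack of the mark thus holds for the contacted starts, not for Trappc9 and Tsc22d1 as whole genes. The Tsc22d1 contact mirrors the stretch in which Tsc22d1 itself contacts DNA 26.6 kb from the start of Lacc1. These contacts were chosen after their values were seen.

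A marked bin near the homeobox genes Hoxa9 and Hoxa7 held no coding start. The nearest was that of Hoxa9, 3.69 kb from the bin's centre, while that of Hoxa7 lay 1.29 kb from its edge. This bin contacted an exon of the sorting nexin gene Snx10 at 640 kb with 20 read pairs (ratio 12.4, interval 7.55 to 19.1). The contact passed over 10 protein-coding starts, that of Hoxa7 among them, and 7 of the 10 carried H3K4me3 in both replicates. The bin that holds the Hoxa7 start had 12 read pairs at 630 kb (ratio 7.07). The first contact passed over more starts than any other contact with at least 20 read pairs. Zfp703 had 20 read pairs at 530 kb (ratio 8.47), and Galnt4 and Poc1b, whose starts share a bin, had 25 at 510 kb (ratio 9.57). Repeats filled a median of 22.3% of the unmarked bins, against 24.9% for shorter contacts and 27.4% of all autosomal bins.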
